A study of Nothobranchius furzeri with 20 samples.

Results

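Livers of older killifish were compared with livers of young killifish that had received a lower or a higher dose of rotenone. The 15 RNA-seq libraries were chosen by their labels out of 20 in the series, 5 from fish of 27 weeks treated at 1% of the LC50 (the median lethal concentration), 5 from fish of 9 weeks treated at 0.1% and 5 from fish of 9 weeks treated at 10%. All came from males of the MZM-04/10p strain of Nothobranchius furzeri, and every group had been given rotenone. Another 5 libraries, from 9-week fish at 1%, took no part in the main calls. They are used below as a group on which the called genes can be read, and in some other fits. Age and dose differed together wherever the 27-week group was set against the 0.1% or 10% group. No untreated fish were analysed here, so in those comparisons age, dose and their combination cannot be told apart. The 27-week and 9-week 1% groups shared the dose, and are tested against each other below for named genes only.

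The turquoise killifish completes its life in seasonal pools, and its brief adult life makes it a vertebrate model of ageing. Rotenone blocks complex I of the mitochondrial respiratory chain, which passes electrons from NADH to ubiquinone. The liver depends on mitochondrial respiration for much of its metabolism and is a main site where foreign compounds are broken down. The gene identifiers of the deposited tables matched 0 of the names in the gene table at hand, so the genes below are given by identifier, without a function, and hepatocyte markers could not be checked. In bulk tissue, fewer cells of a type and less RNA per cell cannot be told apart.

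Library sizes overlapped between the groups, with 23.5 to 33.7 M counts (M, mega) assigned to genes at 27 weeks, 25.4 to 29.8 M at 0.1% and 24.9 to 30.4 M at 10%. Nothing in the labels says that libraries of a group came from different fish, and p-values then reflect only how libraries scatter, which may be technical. That spread was not the same in each group: the median standard deviation of log2 CPM (counts per M counts of a library, scaled by TMM factors) over 16276 genes was 0.306 at 27 weeks, 0.433 at 0.1% and 0.303 at 10%, beside 0.628 in the 9-week 1% group. In the last, replicate 5 stood apart, at a mean distance on log2 CPM of 1.62 from the other 4, which lay at 1.03 to 1.11. The standard deviation of a gene was larger at 27 weeks than at 0.1% for 29.2% of genes, and larger at 27 weeks than at 10% for 50.6%. The 0.1% libraries were deposited in a count table of their own, while the 27-week and 10% libraries shared a table. Table and dose therefore cannot be told apart in any comparison with the 0.1% group.

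Set against the mean of both young groups, with each dose weighted equally, the 27-week livers differed in 4516 of 16276 genes tested (edgeR quasi-likelihood test, Benjamini-Hochberg adjusted p below 0.05), which is 27.7%. Of these, 2469 were higher (15.2%) and 2047 were lower at 27 weeks (12.6%). The changes were mostly moderate, with a median log2 change of 0.82 among the higher genes and -0.78 among the lower ones, beside -0.04 over all genes tested. A change of 2-fold or more was fitted for 915 higher and 714 lower genes, and of 4-fold or more for 193 higher and 145 lower genes. Before adjustment, 6162 genes had p below 0.05. With all 20 libraries in the fit, 2952 genes passed.

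The called genes also made up a different part of the liver's RNA. Genes called higher held 13.2% ± 1.5 of all counts at 27 weeks, against 6.49% ± 1.18 at 0.1% and 5.20% ± 0.37 at 10% (SD, n = 5 each). Genes called lower held 8.32% ± 1.09 of counts at 27 weeks, against 15.4% ± 1.9 at 0.1% and 16.2% ± 1.5 at 10%. These libraries chose the genes, so the shares describe the size of the difference and test nothing. The 9-week 1% libraries, which chose none of them, lay between: the genes called higher held 9.69% ± 2.12 of counts there (6.94% to 12.7%), and the genes called lower 11.7% ± 2.6 (8.26% to 14.9%).

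**Figure D1:**
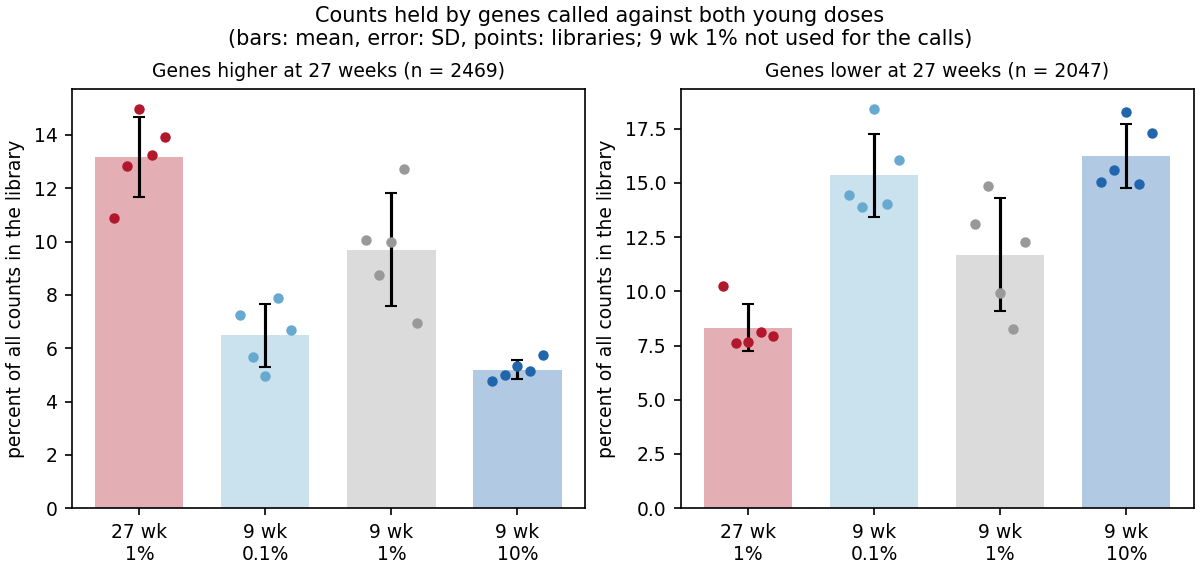
Percent of all counts in a library held by the 2469 genes called higher (left) and the 2047 called lower (right) at 27 weeks. The calls are against the mean of both young doses, and a gene need not differ from each dose. Bars are means, error bars SD, points the 5 libraries of each group. The 9-week 1% libraries, not used for the calls, range from 6.94% to 12.7% on the left and from 8.26% to 14.9% on the right, so that only the lowest library on the right falls outside the span between the 27-week mean and the other 9-week means.

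Gene by gene, the 9-week 1% group was placed on a scale of log2 CPM where the mean of the 0.1% and 10% groups is 0 and the mean of the 27-week group is 1. For the genes called higher, the median position of the 9-week 1% mean was 0.87. Of these 2469 genes, 1745 (70.7%) lay nearer to the 27-week mean, 1023 of them beyond it, and 336 lay below 0. For the genes called lower, the median was 0.77. Of these 2047 genes, 1357 (66.3%) lay nearer to the 27-week mean, 739 of them beyond it, and 233 lay below 0. The 9-week 1% means of many genes thus lay outside the span from 0 to 1. That group had the largest spread between libraries, with a median standard deviation of 0.628 on log2 CPM. How many genes scatter alone would place outside the span was not tested. Median positions of single libraries ran from 0.70 to 1.30 for the higher genes and from 0.57 to 0.95 for the lower genes. Positions were not computed for genes that were not called. In single 9-week 1% libraries the share nearer to 27 weeks ranged from 58.6% to 81.7% for the higher genes and from 56.6% to 74.5% for the lower genes, so each of the 5 libraries lay on that side for most genes of both sets. For replicate 5, which stood apart, the shares were 58.6% and 57.8%, and for the other 4 they were 63.4% to 81.7% and 56.6% to 74.5%. The 9-week 1% fish were of the age of the young groups and of the dose of the 27-week group. Their libraries were in the count table that the 27-week and 10% groups shared. No test was made of these positions, since the genes are not independent.

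The genes with the largest fold differences in which all 5 libraries of the 27-week group lay outside the range of all 10 young libraries show what this looks like in single libraries. Nfu_g_1_007455 was at 37.6, 65.8, 84.1, 64.3 and 57.6 CPM in the 27-week libraries, against 2.63, 1.63, 0.434, 2.56 and 1.62 CPM at 0.1% and 0.563, 0.662, 0.827, 1.34 and 0.494 CPM at 10%. The lowest 27-week library stood far above the highest young one, and the fitted log2 change was 5.71 ± 0.32 (edgeR adjusted p = 6.5e-08), where the error is the SE, as for all log2 changes below. It was 5.11 ± 0.42 against 0.1% alone and 6.31 ± 0.45 against 10% alone (edgeR adjusted p = 5.5e-06 and 1.26e-06).

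Nfu_g_1_001720 was at 34.3, 18.7, 11.9, 50.03 and 16.4 CPM in 27-week livers, against 0.305, 1.63, 1.56, 0.155 and 0.246 CPM at 0.1% and 0.338, 0.348, 0.359, 0.628 and 0.535 CPM at 10%. The groups did not overlap, although 2 of the 0.1% libraries stood well above the other 3. The log2 change was 5.51 ± 0.49 (edgeR adjusted p = 3.08e-06). Both of these genes were also high in the 9-week 1% livers, where they averaged 34.7 ± 21.7 and 23.32 ± 12.74 CPM (SD, n = 5). In a fit of all 20 libraries their log2 changes at 27 weeks against 9 weeks at 1% were 0.83 ± 0.40 and 0.17 ± 0.53, neither past the threshold (edgeR adjusted p = 0.223 and 0.883).

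Nfu_g_1_020030 was at 2.90, 3.66, 2.59, 5.66 and 4.07 CPM in the 27-week libraries, against 1213, 150.3, 50.8, 366.6 and 1006 CPM at 0.1% and 446.7, 1095, 492.1, 851.1 and 742.4 CPM at 10%. The 27-week values kept within a narrow band below all 10 young libraries, while those at 0.1% were widely scattered. The log2 change was -7.39 ± 0.79 (edgeR adjusted p = 1.15e-05). In the 9-week 1% livers this gene was at 1.81, 41.1, 158.2, 1.75 and 111.1 CPM, so that 2 libraries lay below every 27-week library and the other 3 were many times higher. Its log2 change at 27 weeks against 9 weeks at 1% was -4.06 ± 1.02 (edgeR adjusted p = 0.0478, 20 libraries).

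Nfu_g_1_001486 was at 4.57, 2.72, 9.69, 2.91 and 4.82 CPM in 27-week livers, against 46.1, 253.6, 200.3, 83.5 and 88.9 CPM at 0.1% and 397.3, 166.2, 224.5, 285.9 and 116.7 CPM at 10%. All 27-week libraries lay below all young ones, with a log2 change of -5.18 ± 0.54 (edgeR adjusted p = 9.89e-06). The 9-week 1% libraries, at 4.65 to 140.7 CPM, overlapped with the 27-week range. The log2 change against them was -3.28 ± 0.74 (edgeR adjusted p = 0.0388, 20 libraries).

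**Figure D2:**
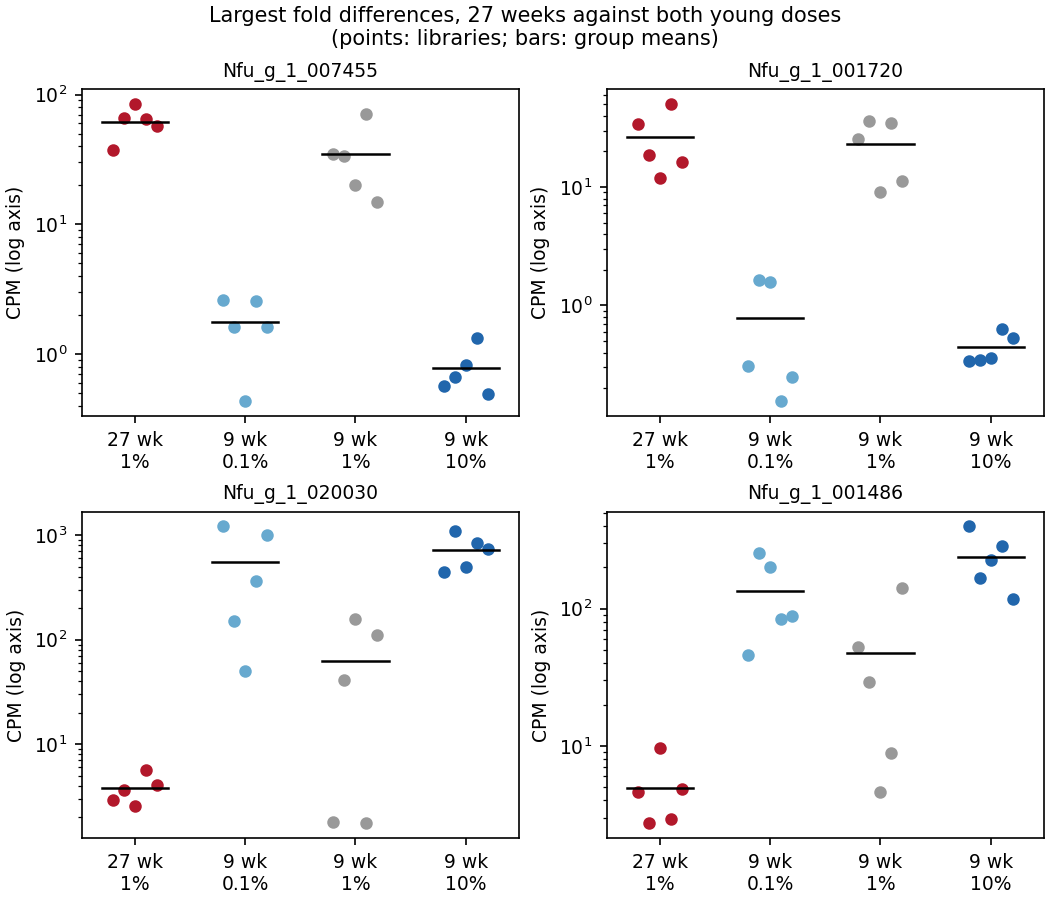
CPM (log axis) of the 2 genes with the largest rise and the 2 with the largest fall at 27 weeks against the mean of both young doses. Points are libraries, 5 per group, and horizontal bars are group means. Nfu_g_1_007455 lies between 37.6 and 84.1 CPM at 27 weeks, above every library at 0.1% and 10%, and Nfu_g_1_020030 between 2.59 and 5.66 CPM, below every such library, while the 9-week 1% libraries of Nfu_g_1_020030 spread between 1.75 and 158.2 CPM.

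Complete separation of this kind held for 1714 genes (10.5% of those tested), of which all 27-week libraries lay above all 10 young libraries for 1056 (6.49%) and below them for 658 (4.04%). The model called 1703 of these genes, 1050 higher and 653 lower. Most called genes therefore overlapped in at least 1 library with the young groups. Gains that rested on 1 library were few but uneven. In 87 of the 2469 genes called higher (3.52%), 1 of the 27-week libraries held more CPM than the other 4 together, and in 63 of the 87 it was replicate 3. These 63 genes had a median log2 change of 2.99, which was 0.63 without replicate 3, when 1 of the 63 was still called higher. Among the genes called lower, 5 of 2047 had 1 young library with more CPM than the other 9 together.

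Taken alone, the 0.1% group gave 3422 genes that differed at 27 weeks (21%), 1686 higher (10.4%) and 1736 lower (10.7%). Neither direction prevailed across settings, since upper-quartile scaling gave 1881 higher and 1494 lower genes. The count was 1952 with all 20 libraries in the fit and 2560 with only the 27-week and 0.1% groups in it. The fold was 2 or more for 731 higher and 677 lower genes, and the median log2 change was 0.91 and -0.85. All libraries of both groups were separated for 2310 genes (14.2%), 1255 above (7.71%) and 1055 below (6.48%). The genes given here are those with the largest differences in CPM among separated genes, and 2 of the 4 rose and 2 fell.

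Nfu_g_1_001062 was at 1797, 2358, 2474, 2614 and 1660 CPM in 27-week livers, against 20.5, 876.7, 144.4, 101.0 and 63.4 CPM at 0.1%. Replicate 2 at 0.1% stood apart from the other 4, all of which were under 150 CPM. The log2 change was 3.18 ± 0.80 (edgeR adjusted p = 0.0114), and 4.75 without that library. Nfu_g_1_010847 had a like pattern, with 2055, 2576, 2314, 2806 and 2069 CPM in 27-week livers, against 211.7, 1696, 461.0, 308.9 and 311.3 CPM at 0.1%. Replicate 2 at 0.1% was again the highest, and the log2 change was 1.98 ± 0.51 (edgeR adjusted p = 0.0134), and 2.89 without it. At 10% these genes averaged 503.8 ± 290.4 and 1071 ± 480 CPM (SD, n = 5), with no library reaching the 27-week range. Their log2 changes against 10%, of 2.11 ± 0.77 and 1.14 ± 0.50, did not pass the threshold (edgeR adjusted p = 0.0583 and 0.117). Both genes also had high means in the 9-week 1% livers, at 2133 ± 868 and 2048 ± 1140 CPM (SD, n = 5). In replicate 5 of that group, however, Nfu_g_1_010847 was at 249.3 CPM, within the range at 0.1%. Against that group the log2 changes at 27 weeks were 0.01 ± 0.67 and 0.21 ± 0.56, neither past the threshold (edgeR adjusted p = 0.994 and 0.860, 20 libraries).

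Nfu_g_1_004519 was at 1257, 952.5, 865.5, 1053 and 904.0 CPM in 27-week livers, against 2108, 3578, 2390, 1888 and 2544 CPM at 0.1%. The groups did not overlap, and the log2 change was -1.31 ± 0.17 (edgeR adjusted p = 0.000136). At 10% the gene was at 1823 to 1996 CPM, also above every 27-week library, with a log2 change of -0.94 ± 0.17 (edgeR adjusted p = 0.00106). The 27-week mean of 1006 ± 157 CPM was above the 9-week 1% mean of 683.5 ± 476.5 CPM (SD, n = 5 each), a difference that did not pass the threshold (log2 change 0.56 ± 0.36, edgeR adjusted p = 0.367).

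Nfu_g_1_022977 was at 809.2, 430.1, 717.7, 977.6 and 474.3 CPM in 27-week livers, against 2142, 2615, 2426, 1234 and 1967 CPM at 0.1%. No library overlapped, with a log2 change of -1.61 ± 0.25 (edgeR adjusted p = 0.000436). Against 10%, where it ranged from 1706 to 2339 CPM, the log2 change was -1.55 ± 0.25 (edgeR adjusted p = 0.000414). The 9-week 1% libraries, at 1071 to 1764 CPM, lay above all 27-week libraries, but the log2 change of -0.94 ± 0.25 missed the threshold (edgeR adjusted p = 0.0529).

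Against the 10% group alone, 3877 genes differed at 27 weeks (23.8%), 2257 higher (13.9%) and 1620 lower (9.95%). A fold of 2 or more was fitted for 980 higher and 680 lower genes, with a median log2 change of 0.92 and -0.89 among called genes. Libraries of both groups were separated for 3618 genes (22.2%), 2112 above (13%) and 1506 below (9.25%). Both groups came from the same count table, so this comparison does not cross the tables. With the libraries of that table only, 9-week 1% included in the fit, 2468 genes were called, and with only both groups in the fit 4800. With all 20 libraries in the fit the count was 2388. Both single-dose comparisons used the same 27-week libraries and are not independent of each other.

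Nfu_g_1_020877 was at 6607, 8579, 9720, 10738 and 5833 CPM in the 27-week libraries, against 280.9, 179.4, 33.1, 852.7 and 145.9 CPM at 10%. The groups were far apart, and the log2 change was 4.80 ± 0.93 (edgeR adjusted p = 0.00162), and 5.72 without replicate 4 at 10%, the highest of its group. At 0.1% the gene was at 8280, 734.1, 291.1, 2317 and 3254 CPM, a spread that took in the 27-week range with replicate 1. The log2 change against 0.1% was 1.48 ± 0.81 and did not pass (edgeR adjusted p = 0.214). The 9-week 1% libraries stood at 353.0 to 1854 CPM, all below the 27-week libraries, with a log2 change of 3.35 ± 0.81 at 27 weeks (edgeR adjusted p = 0.0451, 20 libraries).

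Nfu_g_1_018902 varied little within groups, with 5549, 5384, 5314, 5051 and 5208 CPM in 27-week livers, against 2880, 2892, 3034, 3101 and 3042 CPM at 10%. The log2 change was small but well beyond the spread of either group, at 0.83 ± 0.16 (edgeR adjusted p = 0.00151). At 0.1% it ranged from 3397 to 5894 CPM, across the 27-week values, and the log2 change of 0.28 ± 0.16 did not pass (edgeR adjusted p = 0.237). The 9-week 1% libraries ranged from 2701 to 5127 CPM. The log2 change against them, of 0.55 ± 0.20, did not pass either (edgeR adjusted p = 0.112, 20 libraries).

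Nfu_g_1_005996 was at 22484, 10516, 5694, 8683 and 3335 CPM in 27-week livers, against 35520, 36363, 60771, 35893 and 48246 CPM at 10%. All 27-week libraries lay below all those at 10%, with a log2 change of -2.10 ± 0.53 (edgeR adjusted p = 0.00935). At 0.1% the range of 9732 to 67343 CPM overlapped with that at 27 weeks, and the log2 change was -1.60 ± 0.52 (edgeR adjusted p = 0.0396). The 9-week 1% libraries, at 5128 to 62389 CPM, overlapped with it too. Against them the log2 change of -1.74 ± 0.66 did not pass (edgeR adjusted p = 0.130, 20 libraries). Nfu_g_1_018164 was at 6479, 6162, 7602, 5311 and 7066 CPM in 27-week livers, against 14934, 13571, 17461, 12331 and 13187 CPM at 10%. The log2 change was -1.13 ± 0.35 (edgeR adjusted p = 0.0295). This call ended on leaving out any one of replicates 1, 2, 4 and 5 at 27 weeks or replicates 1 to 3 at 10% (edgeR adjusted p of 0.0520 to 0.0745), and with all 20 libraries in the fit (0.0772), although the groups did not overlap. The call held with only the 27-week and 10% groups in the fit (edgeR adjusted p = 0.000191) and without 0.1% replicate 4 (edgeR adjusted p = 0.000611). At 0.1% the gene ranged from 1798 to 13020 CPM. In the 9-week 1% libraries it ranged from 5493 to 24397 CPM. The log2 change against them, of -1.02 ± 0.42, did not pass (edgeR adjusted p = 0.160, 20 libraries).

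**Figure D3:**
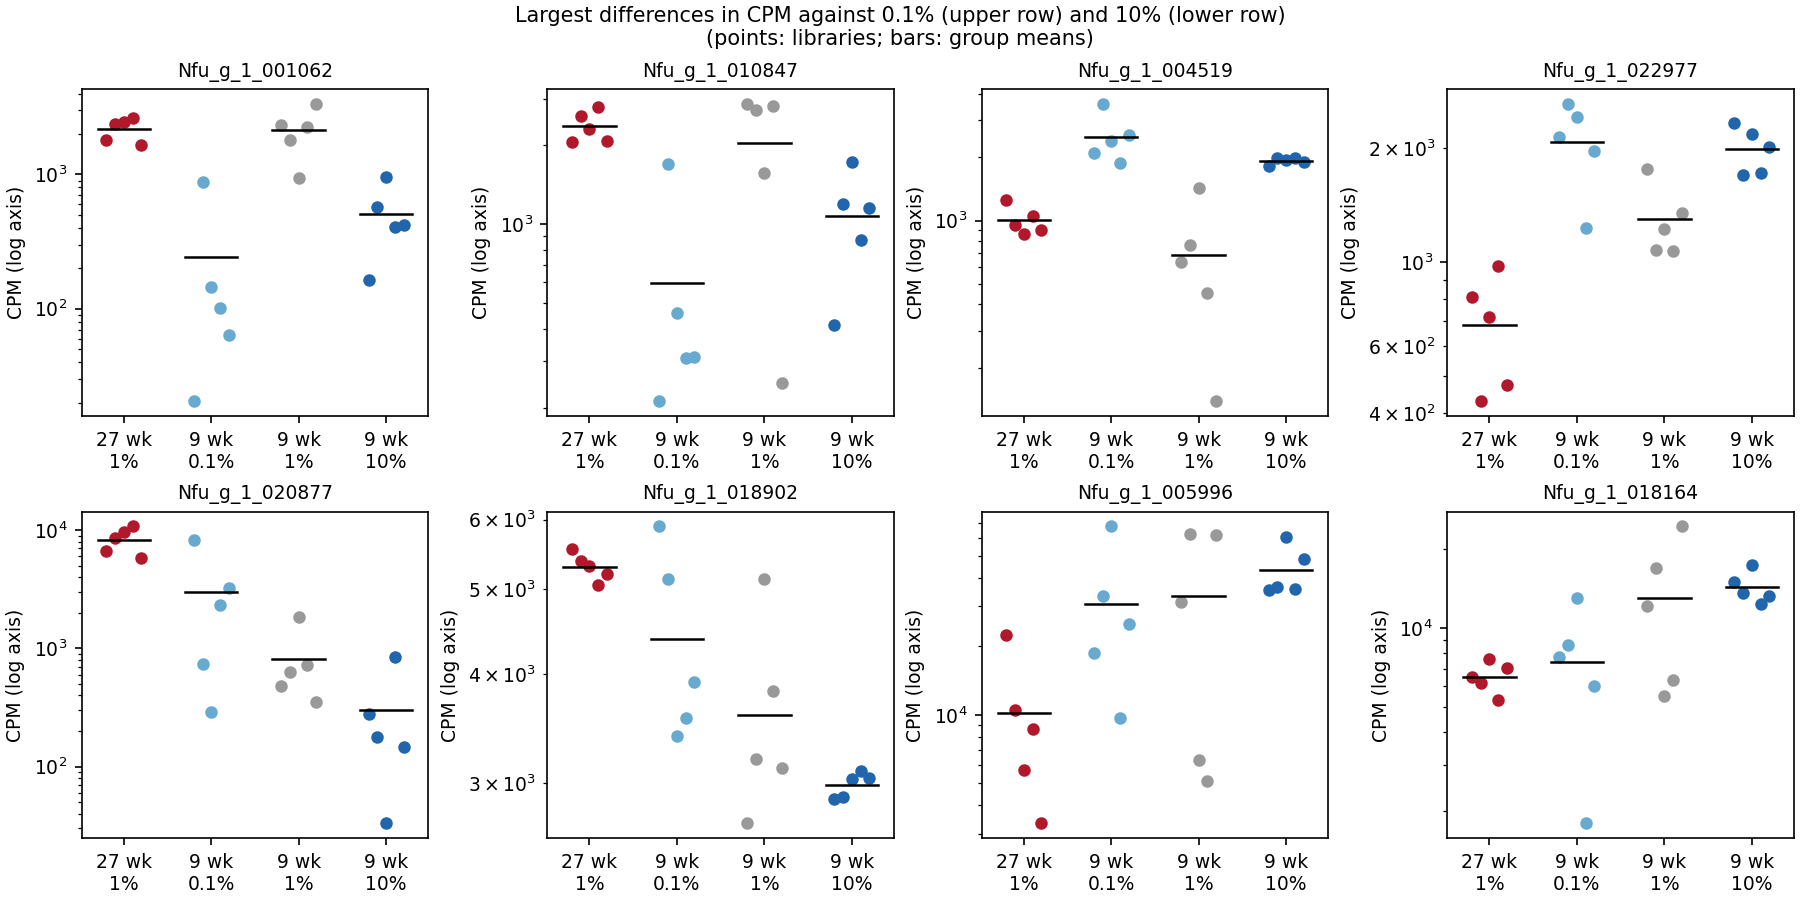
CPM (log axis) of the genes with the largest differences in CPM against 0.1% (upper row) and against 10% (lower row). Only called genes whose libraries were separated between the groups compared were ranked, and each row has 2 higher and 2 lower at 27 weeks. Points are libraries, 5 per group, and horizontal bars are group means. In the upper row the 27-week libraries lie outside the range at 0.1%, in the lower row outside the range at 10%, and at 0.1% Nfu_g_1_020877 runs from 291.1 to 8280 CPM, into the 27-week range.

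Whether a 27-week difference depended on the young dose it was set against is the same question as whether the young groups differed from each other. Of the 16276 genes, 33 differed between 9-week livers at 10% and at 0.1% (0.203%), with 7 higher (0.043%) and 26 lower (0.16%) at 10%. Before adjustment, 1987 genes had p below 0.05. DESeq2 called 488 genes and limma voom 15, so the count rests on the method. It also moved with single libraries, to between 7 and 12 without replicate 1, 2, 3 or 4 at 10% or replicate 1 or 5 at 0.1%, to 21 without replicate 2 at 27 weeks, and to between 107 and 110 without replicate 2, 3 or 4 at 0.1%. Of the 33 genes, 14 were called at 27 weeks against 0.1%, 27 against 10% and 8 against both. Of all genes tested, 21% were called against 0.1% and 23.8% against 10%, and the share called against both was not counted. The 33 were picked for a difference between the young groups in the same fit, so that calls against one or the other are partly built in. With 3422 and 3877 genes called against the single doses and only 33 between the doses, a gene called against 1 young dose only is in most cases not shown to differ between them.

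Nfu_g_1_006676 was at 17.7, 18.28, 18.0, 18.8 and 13.0 CPM at 27 weeks, while the young libraries had 141.8, 124.7, 104.3, 65.4 and 87.6 CPM at 10% and 18.1 to 37.6 CPM (median 19.9) at 0.1%. The 27-week and 0.1% values overlapped and those at 10% stood above both. Its log2 change at 10% against 0.1% was 2.14 ± 0.24 (edgeR adjusted p = 0.00137). At 27 weeks it was -2.61 ± 0.24 against 10% and -0.47 ± 0.23 against 0.1% (edgeR adjusted p = 8.79e-06 and 0.166). Against the 9-week 1% libraries, at 10.2 to 21.9 CPM, it was 0.08 ± 0.25 (edgeR adjusted p = 0.883, 20 libraries).

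Nfu_g_1_014163 was likewise highest at 10%, with a mean of 27.3 ± 3.5 CPM at 27 weeks, 65.4 ± 10.1 CPM at 10% and 26.7 ± 3.3 CPM at 0.1% (SD, n = 5 each). The log2 change at 10% against 0.1% was 1.29 ± 0.14 (edgeR adjusted p = 0.00137), and at 27 weeks -1.26 ± 0.14 against 10% (edgeR adjusted p = 1.9e-05). The mean comparison called it lower at 27 weeks (log2 change -0.61 ± 0.12; edgeR adjusted p = 0.00138), although its log2 change against 0.1% was 0.03 ± 0.13 (edgeR adjusted p = 0.890).

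Nfu_g_1_016971 stood apart at the lower dose instead, with a mean of 7.08 ± 0.56 CPM at 27 weeks, 7.79 ± 1.04 CPM at 10% and 19.4 ± 4.1 CPM at 0.1% (SD, n = 5 each). The log2 change at 10% against 0.1% was -1.32 ± 0.15 (edgeR adjusted p = 0.00137), a call lost with all 20 libraries in the fit (-1.30, edgeR adjusted p = 0.157). At 27 weeks it was -1.46 ± 0.15 against 0.1% and -0.14 ± 0.15 against 10% (edgeR adjusted p = 2.48e-05 and 0.553). Against the 9-week 1% libraries, at 5.31 to 22.2 CPM, it was -0.42 ± 0.31 (edgeR adjusted p = 0.429, 20 libraries).

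Nfu_g_1_000329 was at 17.6, 7.74, 24.0, 29.5 and 14.4 CPM at 27 weeks, while the young libraries had 0.601, 0.662, 0.647, 0.942 and 0.288 CPM at 10% and 8.51, 8.29, 8.07, 2.85 and 4.29 CPM at 0.1%. The 3 groups were graded, with 27-week libraries highest, an overlap with 0.1% through replicate 2 at 27 weeks, and all libraries at 10% lowest. The 9-week 1% libraries, at 0.725, 1.60, 8.83, 19.9 and 0.295 CPM, spread from the 10% range into the 27-week range. The log2 change at 10% against 0.1% was -3.33 ± 0.42 (edgeR adjusted p = 0.00474). That call was lost with limma voom (-3.20, adjusted p = 0.0914) and with all 20 libraries in the edgeR fit (-3.32, adjusted p = 0.173). At 27 weeks it was 4.88 ± 0.45 against 10% and 1.55 ± 0.38 against 0.1% (edgeR adjusted p = 7.05e-06 and 0.00940). Against the 9-week 1% libraries it was 1.56 ± 0.73 and did not pass (edgeR adjusted p = 0.210, 20 libraries).

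At the level of whole libraries, fewer counts went to the most abundant genes at 27 weeks than at 10%, but not clearly fewer than at 0.1%. The 10 highest genes of a library held 18.9% ± 2.2 of its counts at 27 weeks, against 24.4% ± 6.6 at 0.1% and 26.7% ± 2.5 at 10% (SD, n = 5 each). The difference from all 10 young libraries was -6.67 percentage points (two-sided exact permutation test, p = 0.0147, 0.044 adjusted over 9 tests). Against 10% alone it was -7.83 points, and all 27-week libraries lay below all those at 10%, which gives the smallest p that 5 against 5 libraries allow (exact permutation p = 0.00794, adjusted 0.0357). Against 0.1% alone it was -5.51 points and did not pass (exact permutation p = 0.143, adjusted 0.257).

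The 100 highest genes held 46.5% ± 3.3 of counts at 27 weeks, against 50.5% ± 6.1 at 0.1% and 53.8% ± 1.6 at 10% (SD, n = 5 each). The difference of -5.61 points from all young libraries passed before adjustment only (exact permutation p = 0.032, adjusted 0.0719). Against 10% alone it was -7.28 points and passed (exact permutation p = 0.00794, adjusted 0.0357). Against 0.1% alone it was -3.95 points and did not pass (exact permutation p = 0.27, adjusted 0.347). In the 9-week 1% libraries the 100 highest genes held 50.6% ± 4.0 (46.5% to 55.0%, SD, n = 5), again without a test. The number of genes with at least 1 count was 19998 ± 268 at 27 weeks, 19697 ± 463 at 0.1% and 20038 ± 148 at 10%, a difference of 130.8 genes from all young libraries that did not pass (exact permutation p = 0.516, adjusted 0.580).

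Genes were called in each class of abundance and of length. Of 2168 genes with a mean CPM under 1, 137 were called higher and 108 lower against the mean of both doses. The share called was 26.7% at 1 to 10 CPM, 35.3% at 10 to 100 CPM, 25.6% at 100 to 1000 CPM and 14.9% at 1000 CPM or more. Against the mean of both doses, 1145 genes were higher and 1044 lower at 10 to 100 CPM, and 92 were higher and 112 lower at 100 to 1000 CPM. The balance within these bins differed between the comparisons with 0.1% and with 10%, where table and dose cannot be told apart. Over all called genes this balance moved with the scaling. The share that was higher was 49.3% against 0.1% and 58.2% against 10%, but 55.7% and 53.8% with upper-quartile scaling. The bins were not counted under other scalings. At 10 to 100 CPM, 757 genes were higher and 951 lower against 0.1%, while 1140 were higher and 784 lower against 10%. At 100 to 1000 CPM, 51 were higher and 110 lower against 0.1%, while 94 were higher and 79 lower against 10%. Among the 20% shortest genes, up to 1173 bases, 16.7% were higher and 10.5% lower at 27 weeks. Among the 20% longest, from 5515 bases up, 11.4% were higher and 14.4% lower. The median log2 change was 0.01 for the shortest and -0.12 for the longest genes, and Spearman's rho of length and log2 change across 16276 genes was -0.067, a weak relation over genes that share the same libraries. The rho of length with each library's deviation from the mean of all libraries ranged from -0.118 to -0.021 at 27 weeks, from -0.010 to 0.095 at 0.1% and from -0.066 to 0.126 at 10%. All 27-week libraries thus lay below all those at 0.1%, and at 10% only replicate 5, the lowest there, fell within the 27-week range. The part of length in the calls was not tested.

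**Figure D4:**
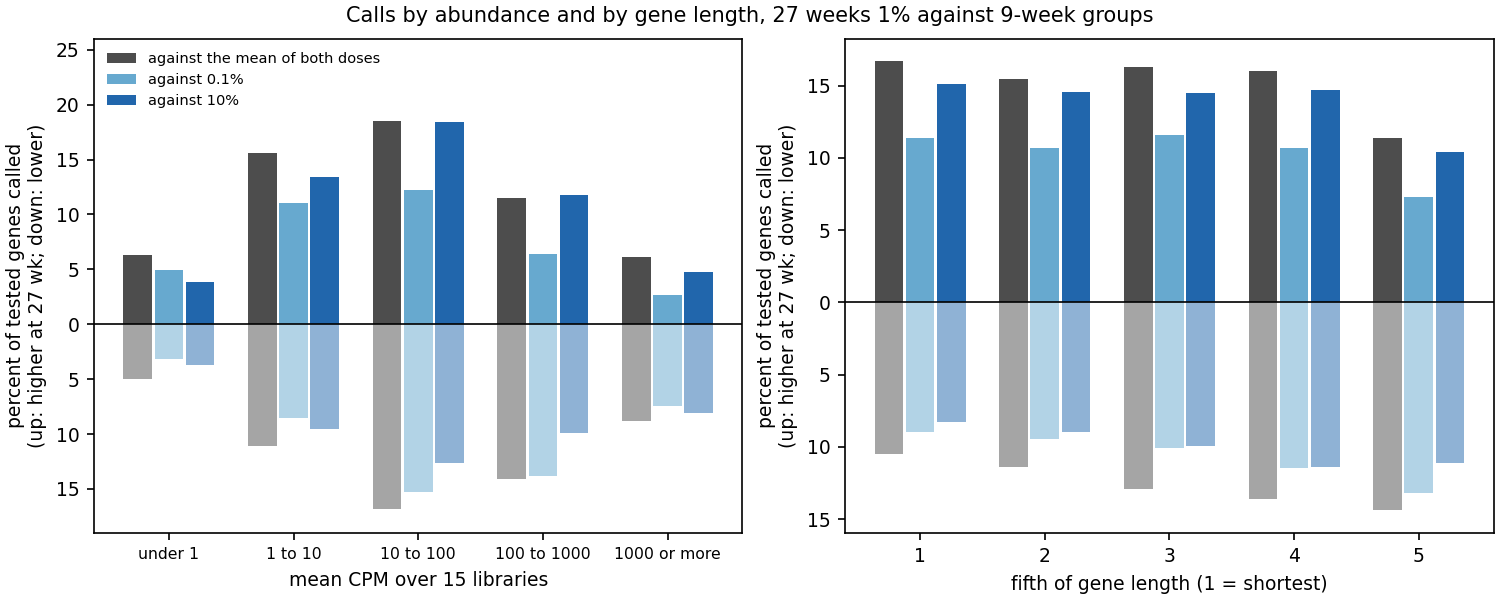
Percent of tested genes called higher (upward bars) and lower (downward bars) at 27 weeks, by mean CPM over the 15 libraries (left) and by 5 equal groups of gene length (right), for the comparison with the mean of both young doses and with each dose. Against the mean of both doses the share called peaks at 10 to 100 CPM (35.3%), and the longest genes have 11.4% higher and 14.4% lower calls.

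No library carried the comparison as a whole. Leaving out each of the 15 libraries in turn gave 3736 to 5123 calls against the mean of both doses, 2752 to 4026 against 0.1% and 3136 to 4511 against 10%. Leaving out 0.1% replicate 4, the library farthest from its group (mean distance 1.23 on log2 CPM, against 0.950 to 1.07 for the other 4), gave the highest count in each comparison.

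**Figure D5:**
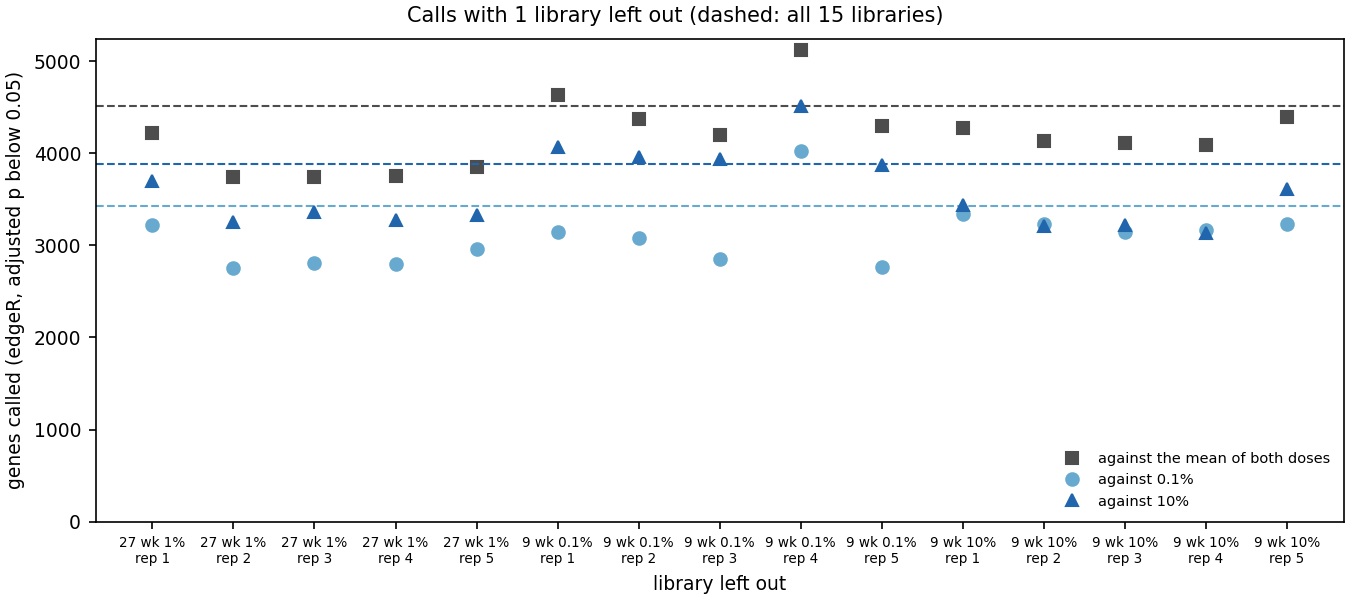
Number of genes called at 27 weeks with 1 of the 15 libraries left out, for the comparison with the mean of both young doses (squares), with 0.1% (circles) and with 10% (triangles); dashed lines are the counts with all 15 libraries (4516, 3422 and 3877). Counts without a library range from 2752 to 5123, and are highest without 0.1% replicate 4.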

How the data were processed

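RNA was sequenced from liver with the TruSeq RNA kit v2, from total RNA, per the labels' protocols. The submitters' processing notes name featureCounts 1.4.6-p4, STAR 2.4.1d and CASAVA 1.8.2, per the labels. The genome build, annotation, strand setting and other options were not given in the sources used here. Where genes overlap, lie antisense to each other or have near-identical copies, the assignment is therefore uncertain. Gene-level raw counts were deposited by the authors as 2 tables, and 10 columns of samples outside the sample list were not used. Tables that the authors deposited with an RPKM label were treated as a score, because their values were divided by library totals recycled every 35 rows. They served only to recover gene lengths (19477 genes), using the totals of 15 of 15 listed libraries, found to within a relative difference of 1.9e-06. That difference is of the totals, not of the lengths. Of 17737 genes with a summed score over 1, 66.1% had a recovered length within 0.1 base of a whole number.

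Counts of the 15 libraries were joined by gene identifier. Genes passing filterByExpr (16276) were fitted in R 4.3.3 by edgeR 4.0.16 (TMM, 1 mean per group, quasi-likelihood F-test, two-sided, Benjamini-Hochberg at 0.05). Standard errors are the absolute log2 change divided by the square root of F. The log2 CPM used a prior count of 2. Counts of 2 replicates differed by a chi-square of 50.6 to 417 per degree of freedom over 30 pairs within groups, far beyond sampling noise. Library measures were tested by exact permutation of libraries, over 3003 divisions for 5 against 10 and 252 for 5 against 5.

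Named genes had a mean CPM of 1 or more, passed the threshold and did not overlap between the groups compared. The rule took 2 per direction, by log2 change against the mean of both doses and by difference in CPM against a single dose. Between the young doses it took the lowest p among genes past the threshold, with no condition on mean CPM or on overlap. Members, lists and rules were chosen with earlier results of these data known. The test was tried on simulated counts in which a gene had the same spread in every group, so unequal spread was not tried. Alternatives were limma 3.58.1 voom, the Wald test and size factors of DESeq2 1.42.0, upper-quartile scaling, other filters, a robust fit, a test against a 1.5-fold change, other sets of libraries in the fit, and each library left out. None (0) of 26739 gene identifiers matched the RefSeq gene table, so no sequence is given and the lists of named genes were not tested.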

Additional observations from a re-analysis of the deposited data

Results flagged for a closer look

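In 6 of 96 groups of 5 libraries tested, 1 library lay far from the other 4 by Dixon's criterion, where chance gives about 1 in 20. Nfu_g_1_007455 had its lowest 0.1% value, 0.434 CPM, in replicate 3 (the other 4 at 1.62 to 2.63 CPM). Nfu_g_1_010847 was lowest in replicate 5 of the 9-week 1% group, at 249.3 CPM. Nfu_g_1_006676 was lowest in replicate 5 at 27 weeks, at 13.0 CPM, and Nfu_g_1_016971 was highest in replicate 4 of the 9-week 1% group, at 22.2 CPM. The share of counts in the 100 highest genes was highest in replicate 1 at 10%, at 56.6%. The share of counts held by genes called lower at 27 weeks was highest among 27-week libraries in replicate 1, at 10.2%.

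The effect at 27 weeks differed with the young dose it was measured against in 33 genes, by the edgeR test of that difference. The 4 named among them were picked by the lowest p in that test, so that their values describe the choice. The log2 effect against 0.1% minus the log2 effect against 10% was 1.29 for Nfu_g_1_014163, 2.14 for Nfu_g_1_006676, -1.32 for Nfu_g_1_016971 and -3.33 for Nfu_g_1_000329.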

How the results depend on the processing

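Counts of genes stayed within 1.5 times the reported value under other scalings, other filters, a robust fit, DESeq2 (5141, 4198 and 4599) and limma voom. The same held with only the groups compared in the fit and with each library left out. This was so against the mean of both doses and against each dose. With 1 library left out the counts were 3736 to 5123 against the mean, 2752 to 4026 against 0.1% and 3136 to 4511 against 10%. With all 20 libraries in the fit the counts were 2952, 1952 and 2388, and in a test against a 1.5-fold change 1141, 777 and 1088, which is stricter by construction. With the first table's libraries only, 2468 genes were called against 10%. The 33 genes between the young doses became 8 with all 20 libraries, 488 with DESeq2, 15 with limma voom and 7 to 110 with 1 library left out. Separated genes numbered 1367 against both doses without TMM scaling, 1731 against 0.1% and 3745 against 10%. With 1 library left out they numbered 1740 to 2164, 2467 to 3435 and 3865 to 4342, an alternative chosen after seeing the data. Leaving out a library on the same CPM can only keep or raise these numbers, so it does not test them.

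The 16 named genes kept their direction in all 376 settings run for them and their side of the threshold in 362, with 14 losses, of which 9 were for Nfu_g_1_018164, 2 for Nfu_g_1_000329 and 1 each for Nfu_g_1_016971, Nfu_g_1_010847 and Nfu_g_1_018902 (the last pair only in the test against a 1.5-fold change). All were picked for passing the threshold, most of them also for separated ranges and large differences. Their stability was therefore largely set by the choice and is no independent check. The share of counts in the 10 highest genes did not pass against 0.1% alone (-5.51 points). That of the 100 highest genes passed before adjustment but not against 0.1% alone (-3.95 points), nor without 27-week replicate 3 or 5, 0.1% replicate 2 or 3 or 10% replicate 1 (-6.65 to -4.62 over all 15 libraries left out). The difference in detected genes was 130.8 over both doses and -40 against 10% alone, and 40.7 (without 0.1% replicate 2) to 203.4 (without 27-week replicate 1) with 1 library left out, and none passed. The cause of these shifts was not tested. No paired analysis was possible because the labels give no replicate numbers. The replicate numbers used here follow the order of the sample list within each group. Depth limits genes with few counts: of 2168 genes under 1 CPM, 137 were called higher and 108 lower.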
